A study of Homo sapiens with 6 samples.

Results

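The genes described here are 48 interferon-stimulated genes taken by symbol from a fixed list, covering antiviral effectors outside the IFIT, OAS, IRF, STAT and nucleic acid sensor families. All 48 symbols were found among the 58884 genes of the deposited table, and 41 of them passed the expression filter. The tested libraries came from HL-60 cells with an EZH2 shRNA (3 libraries with the title numbers 1, 3 and 4), and the libraries they were set against came from HL-60 cells with a scrambled control shRNA (3 libraries with the title numbers 3, 4 and 5). HL-60 cells, an established leukemia line that the labels call RAS-mutated acute myeloid leukemia, resemble promyelocytes. All 6 libraries share a lentiviral vector, selection with puromycin that was washed out before the experiment, and 24 hours in RPMI-1640 with 0.05% fetal bovine serum before RNA was taken. No interferon treatment is described. The labels do not say how many hairpins or clones were used, or whether the libraries of a group are separate cultures. The p-values therefore reflect differences among these 6 libraries alone, and such differences can be technical. Polyadenylated RNA was sequenced, and the comparison asks which genes change when less EZH2 is made. EZH2 is the enzyme of the Polycomb complex PRC2 that methylates lysine 27 of histone H3, a mark of silenced genes.

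Interferon-stimulated genes are the output of the interferon receptors. Type I interferon binds the receptor chains IFNAR1 and IFNAR2, the kinases JAK1 and TYK2 are activated, and a complex that holds STAT2 and IRF9 forms and binds the interferon-stimulated response element (ISRE) in promoters. Part of this set is also kept at a low basal level in resting cells. The proteins made block entry, replication or release of viruses and modify host proteins, and several of them slow growth or favour cell death.

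Of the 41 measured genes, 38 were lower in EZH2 shRNA cells, 0 were higher and 3 did not pass (edgeR quasi-likelihood test, adjusted p under 0.05 over all 16859 genes tested). Over all genes tested 46.7% were called, 22.9% lower and 23.8% higher, so calls were frequent in this comparison. The median log2 fold change (EZH2 shRNA over control shRNA) was -0.73 over the 41 measured genes and 0.01 over all genes tested. At least 2-fold falls were found for 17 of the 41, against 2.18% of all genes tested, and at least 4-fold falls for 3 of the 41, against 0.368%. No member was at least 2-fold higher, against 4.36% of all genes tested. Every EZH2 shRNA library lay below every control library for 37 of the 41, against 27% of all genes tested, and above every control library for 0 of the 41, against 27.9%. The 4 genes MX1, MX2, IFI44 and RSAD2 reached the filter level of 0.195 CPM (read counts scaled to library size) in every control library but not in every EZH2 shRNA library, so they entered the test through their control level, which favours genes that are lower with EZH2 shRNA. All 3 genes that fell at least 4-fold are among them. Without these 4, 35 of 37 were lower, 14 at least 2-fold and 0 at least 4-fold, the median was -0.57, and 33 had every EZH2 shRNA library below every control library.

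**Figure D1:**
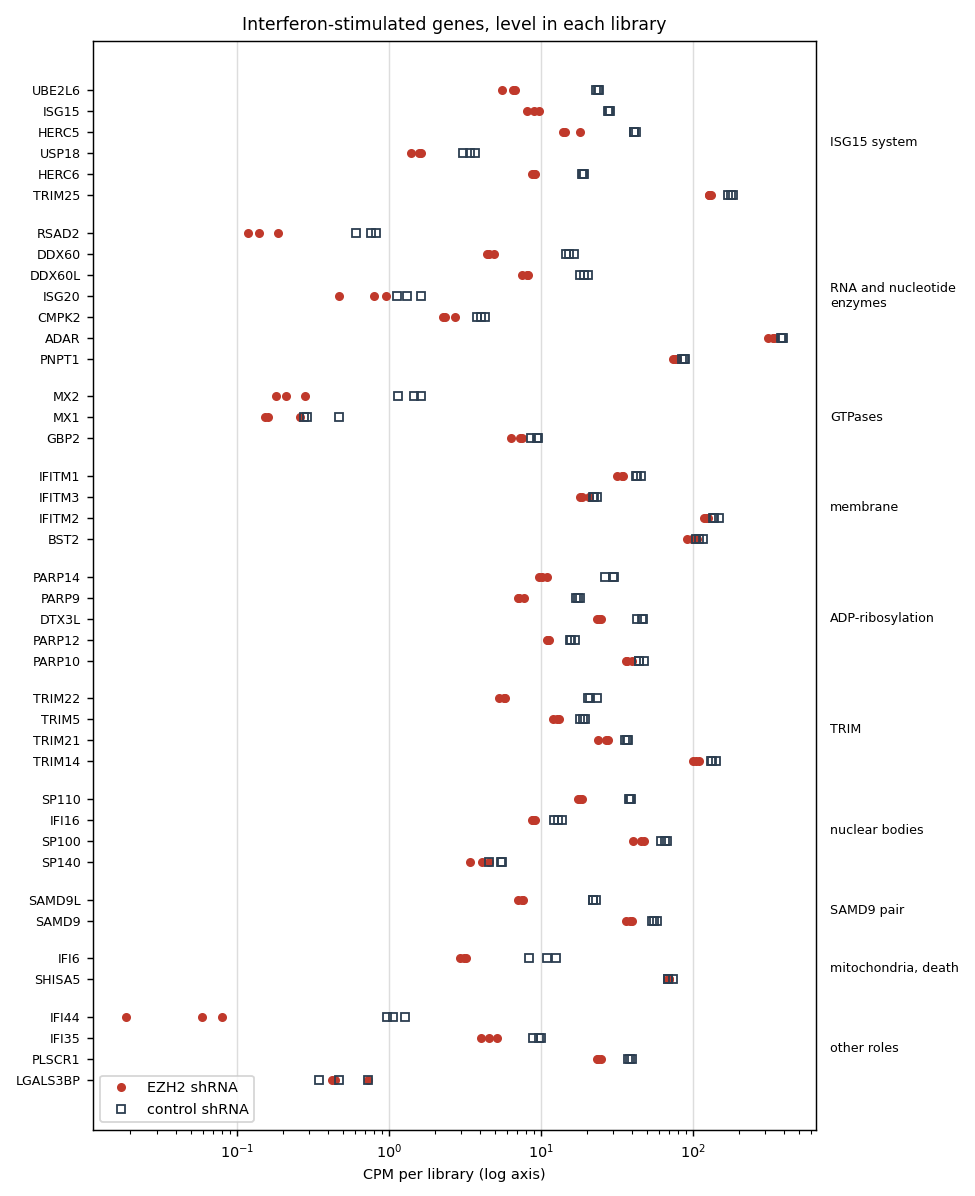
Level of each of the 41 measured interferon-stimulated genes in each library, in CPM on a log axis, with EZH2 shRNA libraries as filled circles and control shRNA libraries as open squares. For 37 genes all circles lie left of all squares, and the symbols overlap for BST2, SP140, SHISA5 and LGALS3BP.

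The targeted gene was checked first. EZH2 was at 79.5, 83.2 and 77.3 CPM in EZH2 shRNA libraries 1, 3 and 4, against 147.6, 150.5 and 150.3 CPM in control libraries 3, 4 and 5 (log2 fold change -0.90, SE 0.04, edgeR adjusted p = 3.22e-11; exact two-sided permutation p = 0.1, the smallest that 3 against 3 can give). Total counts lay between 50809853 and 85074624 in the EZH2 shRNA libraries and between 39717343 and 51622861 in the control libraries, and 3 counts correspond to between 0.0353 and 0.0759 CPM. The promyelocyte genes MPO and CD33 were high in all libraries, at 9416 and 150.1 CPM on average in EZH2 shRNA cells and 9795 and 142.1 CPM in control cells, whereas ELANE was near 0 in both groups (0.145 and 0.0349 CPM). PRTN3 and AZU1 were higher (log2 fold change 2.14 and 0.69) and CTSG was lower (-0.22). Markers of other blood cell states moved with the groups. All 5 eosinophil genes on the list were higher (summed 326 to 349 CPM in EZH2 shRNA libraries and 136 to 138 CPM in control libraries), and so were 2 of 5 monocyte genes, FCGR1A and CSF1R (summed 19.9 to 23.2 CPM and 7.67 to 9.40 CPM), with CD14 at most at 0.0589 CPM in EZH2 shRNA libraries and 0.0707 CPM in control libraries. None of the measured mature neutrophil genes (summed 28.1 to 32.3 CPM in EZH2 shRNA libraries and 26.7 to 31.8 CPM in control libraries), the T and B cell genes (0.933 to 1.08 and 0.354 to 0.825 CPM) or the genes of cells outside the blood (0.412 to 0.634 and 0.354 to 0.405 CPM) passed the test, with ALPL, MS4A1, EPCAM, COL1A2 and HBB at 0 in all 6 libraries. The part of these markers in the falls below was not tested, and in bulk RNA fewer cells that express a gene and less RNA per cell cannot be told apart.

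Promoter sequences are shown because the complex that forms after interferon binding acts through the ISRE in promoters. Whether the matches found here are used in these cells was not tested. A common core of the ISRE, GAAA and GAAA with any 2 bases between them, was searched on both strands of the RefSeq promoter windows (GRCh38.p14, 250 bases before to 50 after each listed start), and 42 of the 48 genes had a window. Of these, 29 (69.0%) held at least 1 match, against 4.38% of all 27305 genes in the RefSeq table and 4.1% of the 9768 tested genes with a window. Below are the 160 bases before the start, 5′ to 3′ on the strand of the gene, with matches in capitals; matches may overlap each other and then form a longer run.
ISG15 (chr1:1013337-1013496, plus strand): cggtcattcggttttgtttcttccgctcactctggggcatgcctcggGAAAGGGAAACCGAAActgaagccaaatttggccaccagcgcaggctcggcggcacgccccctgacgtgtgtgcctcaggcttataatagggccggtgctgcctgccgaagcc
IFI6 (chr1:27672193-27672352, minus strand): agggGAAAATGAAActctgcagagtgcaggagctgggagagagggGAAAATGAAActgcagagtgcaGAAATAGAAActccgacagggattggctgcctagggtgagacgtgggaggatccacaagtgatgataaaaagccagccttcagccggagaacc
HERC5 (chr4:88456959-88457118, plus strand): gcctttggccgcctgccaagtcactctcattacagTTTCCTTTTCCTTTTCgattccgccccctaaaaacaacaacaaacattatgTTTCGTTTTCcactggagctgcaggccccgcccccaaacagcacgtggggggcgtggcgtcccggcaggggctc
DDX60 (chr4:168318753-168318912, minus strand): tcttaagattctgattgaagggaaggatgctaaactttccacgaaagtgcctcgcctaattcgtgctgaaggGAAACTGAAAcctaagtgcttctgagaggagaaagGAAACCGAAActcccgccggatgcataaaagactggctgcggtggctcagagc
DDX60L (chr4:168480493-168480652, minus strand): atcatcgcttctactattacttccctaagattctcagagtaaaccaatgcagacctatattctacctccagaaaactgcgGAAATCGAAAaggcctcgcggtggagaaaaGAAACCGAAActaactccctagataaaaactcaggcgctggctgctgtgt
SAMD9 (chr7:93117980-93118139, minus strand): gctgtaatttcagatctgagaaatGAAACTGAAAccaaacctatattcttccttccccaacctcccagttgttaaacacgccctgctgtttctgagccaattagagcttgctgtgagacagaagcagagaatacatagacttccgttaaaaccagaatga
SAMD9L (chr7:93148386-93148545, minus strand): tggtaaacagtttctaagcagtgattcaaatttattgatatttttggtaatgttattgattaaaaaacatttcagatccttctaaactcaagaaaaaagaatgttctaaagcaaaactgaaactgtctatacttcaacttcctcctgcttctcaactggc
BST2 (chr19:17405631-17405790, minus strand): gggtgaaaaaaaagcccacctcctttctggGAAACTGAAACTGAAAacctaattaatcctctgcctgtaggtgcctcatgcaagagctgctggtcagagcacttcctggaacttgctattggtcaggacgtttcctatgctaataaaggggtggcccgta
The first 3 are genes with clustered or repeated elements whose mRNA fell at least 2-fold. DDX60 and DDX60L are neighbouring copies with 2 matches each. SAMD9 and SAMD9L are also neighbours, of which only the first holds a match in these letters, and BST2 holds 2 overlapping matches with a log2 fold change of -0.16.

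Fold changes of genes with and without a match covered overlapping ranges. Among the 35 measured genes with a window, the 23 with a match had a median log2 fold change of -0.86 (range -4.33 to 0.05, 20 called lower). The 12 without one had a median of -0.64 (range -1.91 to -0.19, all 12 called lower). Over all genes tested 22.9% were called lower. Of the genes with a match, IFI44 (-4.33), RSAD2 (-2.33) and MX1 (-0.86, the median itself) passed the filter only through the controls, which favours falls. No gene without a match did, so the difference between the medians is not read as a result. The 3 measured genes that did not pass, MX1, SHISA5 and LGALS3BP, all hold a match, while UBE2L6, SAMD9L, SP110, HERC6 and IFI35, all at least 2-fold lower, hold none in these windows. The core of the gamma-activated sequence (GAS), TTCNNNGAA, an element of genes that respond to type II interferon, was found in windows of 11 of the 42 genes (26.2%), against 9.38% of all genes in the table. MX2, IFITM2, USP18, PARP10, TRIM22 and GBP2 had no window in the table.

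**Figure D2:**
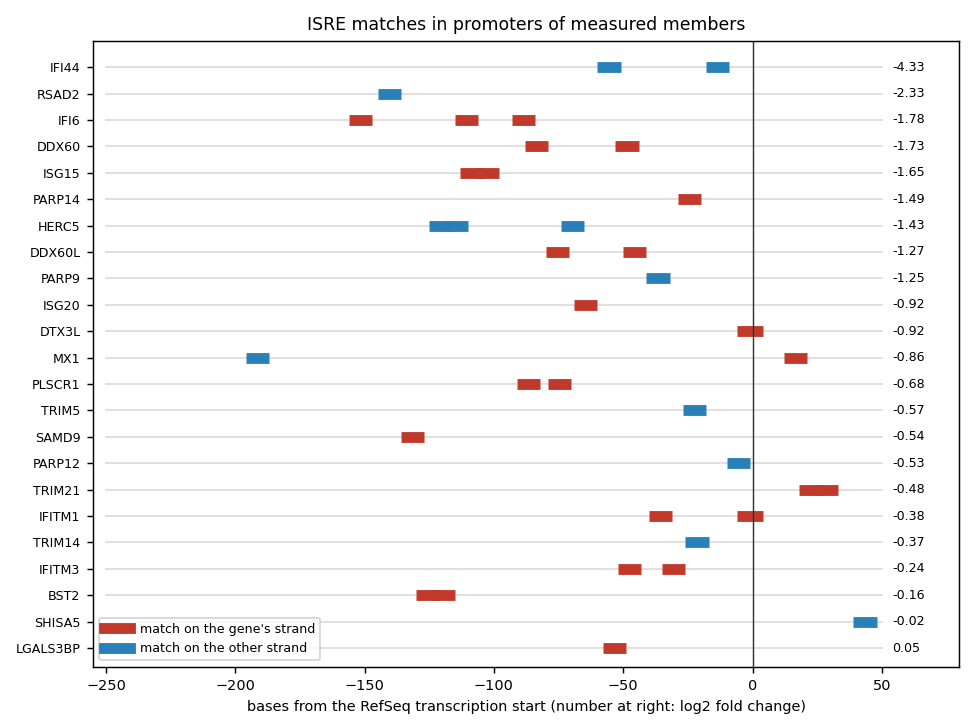
Position of each ISRE core match in the promoter windows of the 23 measured genes that hold one, in bases from the RefSeq start, ordered from the largest fall (top) to the smallest; windows of alternative starts of a gene share a row. Matches on either strand occur over the whole range of log2 fold changes from -4.33 (IFI44) to 0.05 (LGALS3BP).

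Of the listed genes of the ISG15 conjugation system 6 of 6 were lower, with a median log2 fold change of -1.28. This count and those of the classes below stand against 22.9% of all genes tested that were called lower. ISG15 is a ubiquitin-like protein that is attached to newly made proteins by the conjugating enzyme UBE2L6 and the ligase HERC5. UBE2L6 (chromosome 11, 57551656 to 57568284, minus strand) was at 6.53, 5.52 and 6.74 CPM in EZH2 shRNA libraries 1, 3 and 4, against 23.1, 23.6 and 24.0 CPM in control libraries 3, 4 and 5 (log2 fold change -1.91, SE 0.08, edgeR adjusted p = 1.39e-11). ISG15 (chromosome 1, 1001138 to 1014540, plus strand) was at 9.76, 8.12 and 9.08 CPM in EZH2 shRNA libraries, against 28.5, 28.2 and 27.7 CPM in control libraries (-1.65, SE 0.07, adjusted p = 2.12e-11). HERC5 was at 18.0, 13.9 and 14.3 CPM in EZH2 shRNA libraries and 42.1, 41.3 and 41.2 CPM in control libraries (-1.43, SE 0.08, adjusted p = 5.13e-09). For these 3 genes every EZH2 shRNA library lay far below every control library, and the control libraries were close to each other. USP18, the protease that removes ISG15 and also dampens the interferon receptor, was lower too (-1.14, SE 0.15, adjusted p = 8.38e-06), as was HERC6, which is the main ISG15 ligase in the mouse (-1.08, SE 0.07). TRIM25, a ligase that acts on the RNA sensor pathway and on ISG15 targets, fell least (-0.46, SE 0.04), and its gene overlaps DGKE and C17orf67.

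Enzymes that act on RNA or nucleotides were lower in 7 of 7 cases, over a wide range of sizes. RSAD2 (viperin), which makes a chain-terminating nucleotide, was at 0.141, 0.187 and 0.118 CPM in EZH2 shRNA libraries, against 0.607, 0.767 and 0.825 CPM in control libraries (log2 fold change -2.33, SE 0.35, edgeR adjusted p = 3.80e-05). These are low levels. The groups did not overlap, but RSAD2 passed the filter only through the controls, which favours that order. The helicase gene DDX60 was at 4.44, 4.95 and 4.59 CPM in EZH2 shRNA libraries and 14.7, 16.4 and 15.3 CPM in control libraries (-1.73, SE 0.09, adjusted p = 8.96e-11). Its neighbour DDX60L was at 8.14, 8.21 and 7.57 CPM in EZH2 shRNA libraries and 19.2, 18.0 and 20.5 CPM in control libraries (-1.27, SE 0.08, adjusted p = 1.07e-09). Each group was tight and apart from the other for these copies, which can share reads. The exonuclease gene ISG20 fell by 0.92 on the log2 scale (SE 0.26, adjusted p = 0.00858), a call that ended without control library 4 (adjusted p = 0.0614), without EZH2 library 4 (0.0586) and on unfiltered log2(FPKM + 1) (0.141). CMPK2, a mitochondrial nucleotide kinase whose gene overlaps RSAD2 on the other strand, was at -0.73 (SE 0.13), at -0.44 with chromosome medians removed (adjusted p = 0.012) and at -0.31 on log2(FPKM + 1). The abundant editing enzyme gene ADAR was at -0.23 (SE 0.04, adjusted p = 0.000267) and the mitochondrial RNA exonuclease gene PNPT1 at -0.19 (SE 0.04, adjusted p = 0.00117). With chromosome medians removed PNPT1 was at 0.10 (adjusted p = 0.0575), which ends its call and turns its sign.

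Among the interferon-induced GTPases, MX2 and GBP2 were lower and MX1 did not pass. MX2, which restricts HIV-1, was at 0.181, 0.280 and 0.212 CPM in EZH2 shRNA libraries, against 1.62, 1.15 and 1.46 CPM in control libraries (log2 fold change -2.64, SE 0.29, edgeR adjusted p = 1.06e-06). MX1, which restricts influenza virus, was at 0.161, 0.261 and 0.153 CPM in EZH2 shRNA libraries and 0.278, 0.288 and 0.471 CPM in control libraries (-0.86, SE 0.41, adjusted p = 0.1004). GBP2 was at 7.49, 6.40 and 7.34 CPM in EZH2 shRNA libraries and 9.54, 9.38 and 8.60 CPM in control libraries (-0.37, SE 0.09, adjusted p = 0.00309). No group overlapped the other for these 3 genes, although the gap of MX1 was narrow. MX1 and MX2 passed the filter only through the controls, which favours this order. Over all genes tested, 27% had every EZH2 shRNA library below every control library. GBP1, of the same family as GBP2, did not pass the filter, with 5 counts over the EZH2 shRNA libraries and 17 over the control libraries.

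The membrane proteins that block virus entry or release changed least. IFITM1, IFITM2 and IFITM3, which hinder membrane fusion, and BST2 (tetherin), which holds budding virus at the cell surface, were all called lower, with log2 fold changes between -0.38 and -0.16. IFITM1 was at 34.6, 31.7 and 34.2 CPM in EZH2 shRNA libraries, against 43.0, 45.3 and 42.5 CPM in control libraries (-0.38, SE 0.05, edgeR adjusted p = 1.37e-05). IFITM3 was at 20.6, 18.2 and 18.6 CPM in EZH2 shRNA libraries and 22.1, 22.5 and 23.3 CPM in control libraries (-0.24, SE 0.06, adjusted p = 0.00508). IFITM2 was at 126, 118 and 121 CPM in EZH2 shRNA libraries and 148, 135 and 137 CPM in control libraries (-0.20, SE 0.04, adjusted p = 0.00119). The 3 IFITM genes stand together on chromosome 11, whose genes were lower as a whole (median log2 fold change -0.27). With chromosome medians removed, IFITM1 was at -0.11 (adjusted p = 0.0955), IFITM2 at 0.068 (0.231) and IFITM3 at 0.026 (0.781). BST2 at -0.16 (adjusted p = 0.0267) overlapped between groups and lost its call without control library 3 (0.0704), control library 5 (0.128) or EZH2 library 4 (0.0759) and in the limma fits on log2(FPKM + 1) (0.0831, unfiltered 0.167) and log2(FPKM + 0.1) (0.0800). The IFITM genes are close copies that can share reads, and the annotated IFITM1 and IFITM2 overlap on the same strand.

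The ADP-ribosyltransferases and DTX3L fell in 5 of 5 cases. PARP9 and the ubiquitin ligase DTX3L form a heterodimer, and PARP14 modifies proteins with single ADP-ribose units. PARP14 (chromosome 3, 122680839 to 122730840, plus strand) was at 9.78, 10.95 and 10.2 CPM in EZH2 shRNA libraries, against 26.5, 30.0 and 30.4 CPM in control libraries (log2 fold change -1.49, SE 0.07, edgeR adjusted p = 6.72e-11). PARP9 was at 7.17, 7.07 and 7.80 CPM in EZH2 shRNA libraries and 17.4, 18.1 and 17.0 CPM in control libraries (-1.25, SE 0.08, adjusted p = 1.08e-09). DTX3L was at 24.0, 23.4 and 24.8 CPM in EZH2 shRNA libraries and 43.0, 46.1 and 47.1 CPM in control libraries (-0.92, SE 0.05, adjusted p = 6.84e-10). All 3 lie on chromosome 3, whose genes had a median of -0.01, and the groups were far apart. The genes PARP9 and DTX3L overlap on opposite strands. PARP12, which also adds single ADP-ribose units and lies on chromosome 7, was at -0.53 (SE 0.07), and PARP10, on chromosome 8 and overlapping GRINA, was at -0.27 (SE 0.05).

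Many TRIM proteins are ubiquitin ligases through a RING domain, which TRIM14 lacks, and 4 of 4 measured members of this class were lower. TRIM22 (chromosome 11, 5689697 to 5737089, plus strand) was at 5.83, 5.75 and 5.28 CPM in EZH2 shRNA libraries, against 21.1, 20.3 and 23.3 CPM in control libraries (log2 fold change -1.95, SE 0.08, edgeR adjusted p = 1.25e-11). TRIM5, which binds retroviral capsids, was at 13.2, 12.1 and 12.8 CPM in EZH2 shRNA libraries and 19.5, 18.0 and 18.8 CPM in control libraries (-0.57, SE 0.07, adjusted p = 3.35e-06). TRIM21, an intracellular antibody receptor, was at 27.7, 23.9 and 26.8 CPM in EZH2 shRNA libraries and 37.5, 36.6 and 35.5 CPM in control libraries (-0.48, SE 0.06, adjusted p = 4.33e-06). The groups stood apart for all 3, which lie on chromosome 11, and TRIM22 and TRIM5 overlap on opposite strands. With chromosome medians removed they were still called lower, at -1.68 for TRIM22 (adjusted p = 8.22e-11), -0.30 for TRIM5 (0.0019) and -0.21 for TRIM21 (0.00761). TRIM14, on chromosome 9 and overlapping NANS, was at -0.37 (SE 0.05).

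The SP100 family of nuclear body proteins and the DNA-binding protein IFI16 were lower in 4 of 4 cases. SP110 was at 17.6, 18.6 and 18.2 CPM in EZH2 shRNA libraries, against 37.8, 39.2 and 38.5 CPM in control libraries (log2 fold change -1.09, SE 0.05, edgeR adjusted p = 8.95e-11). IFI16 was at 9.12, 8.79 and 8.90 CPM in EZH2 shRNA libraries and 13.0, 13.9 and 12.2 CPM in control libraries (-0.54, SE 0.08, adjusted p = 2.48e-05). SP100, a constituent of PML bodies, was at 47.6, 40.3 and 45.9 CPM in EZH2 shRNA libraries and 61.4, 65.7 and 67.4 CPM in control libraries (-0.54, SE 0.06, adjusted p = 1.70e-06). No group overlapped the other for these 3. SP140 was at 4.12, 3.42 and 4.53 CPM in EZH2 shRNA libraries and 4.53, 5.51 and 5.54 CPM in control libraries, with overlapping groups (-0.36, SE 0.13, adjusted p = 0.0285). The 3 SP genes are neighbours on chromosome 2, whose genes had a median of -0.29, and SP110 and SP140 overlap on opposite strands. With chromosome medians removed SP110 was at -0.80 (adjusted p = 4.75e-09), SP100 at -0.25 (0.00291) and SP140 at -0.070 (0.699). SP140 also lost its call without control library 4 (0.107), control library 5 (0.105) or EZH2 library 3 (0.0817), with the replicate block (0.0511) and in the limma fits on log2(FPKM + 1) (0.0728, unfiltered 0.15) and log2(FPKM + 0.1) (0.0786).

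SAMD9 and SAMD9L are neighbouring paralogs on chromosome 7 that restrain translation and growth. SAMD9L was at 7.03, 7.58 and 7.49 CPM in EZH2 shRNA libraries, against 22.0, 23.2 and 22.1 CPM in control libraries (log2 fold change -1.61, SE 0.07, edgeR adjusted p = 2.20e-11). SAMD9 was at 40.0, 36.2 and 38.7 CPM in EZH2 shRNA libraries and 53.9, 55.2 and 58.0 CPM in control libraries (-0.54, SE 0.05, adjusted p = 1.98e-07). The groups stood apart for both genes, and the difference between the fold changes of the paralogs was not tested.

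Of the proteins tied to mitochondria or cell death, IFI6 fell and SHISA5 did not pass. IFI6, which opposes apoptosis, was at 2.95, 3.12 and 3.21 CPM in EZH2 shRNA libraries, against 10.9, 12.6 and 8.37 CPM in control libraries (log2 fold change -1.78, SE 0.13, edgeR adjusted p = 3.57e-08). SHISA5, a p53 target of the endoplasmic reticulum, was at 68.2, 69.5 and 69.9 CPM in EZH2 shRNA libraries and 73.7, 68.4 and 68.3 CPM in control libraries (-0.02, SE 0.04, adjusted p = 0.758). Its groups overlapped. XAF1 and IFI27 did not pass the filter, with 0 and 15 counts over the EZH2 shRNA libraries and 1 and 6 over the control libraries.

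Among the members of other roles, IFI44 had the largest fall of all 41 measured genes. It (chromosome 1, 78649796 to 78664078, plus strand) was at 0.0803, 0.0187 and 0.0589 CPM in EZH2 shRNA libraries, against 1.06, 1.29 and 0.966 CPM in control libraries (log2 fold change -4.33, SE 0.40, edgeR adjusted p = 1.94e-07). These levels in EZH2 shRNA libraries correspond to 4, 1 and 5 counts, so the size of the fall is uncertain. IFI44 passed the filter only through the controls, which favours genes that are lower with EZH2 shRNA. Its neighbour IFI44L, below the filter, had 0 counts over the EZH2 shRNA libraries and 1, 6 and 1 counts in control libraries 3, 4 and 5. Without control library 4 both groups are under 3 counts, so no fold is given. IFI35, a partner of the protein NMI, was at 5.14, 4.03 and 4.57 CPM in EZH2 shRNA libraries and 9.67, 8.84 and 10.02 CPM in control libraries (-1.05, SE 0.10, adjusted p = 3.93e-07). PLSCR1, a phospholipid scramblase, was at 23.9, 23.4 and 24.9 CPM in EZH2 shRNA libraries and 37.7, 38.7 and 39.8 CPM in control libraries (-0.68, SE 0.05, adjusted p = 1.92e-08). The groups stood apart for IFI35 and PLSCR1, and also for IFI44, where the filter favours this order. LGALS3BP, a secreted glycoprotein that binds galectins, was at 0.442, 0.728 and 0.424 CPM in EZH2 shRNA libraries and 0.734, 0.345 and 0.471 CPM in control libraries, with overlapping groups (0.05, SE 0.35, adjusted p = 0.925). Its sign turned negative without control library 4 or 5, without EZH2 library 3 and with chromosome medians removed. EPSTI1, RTP4 and TRIM34 were below the filter, with 0, 3 and 2 counts over the EZH2 shRNA libraries and 1, 1 and 2 over the control libraries.

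**Figure D3:**
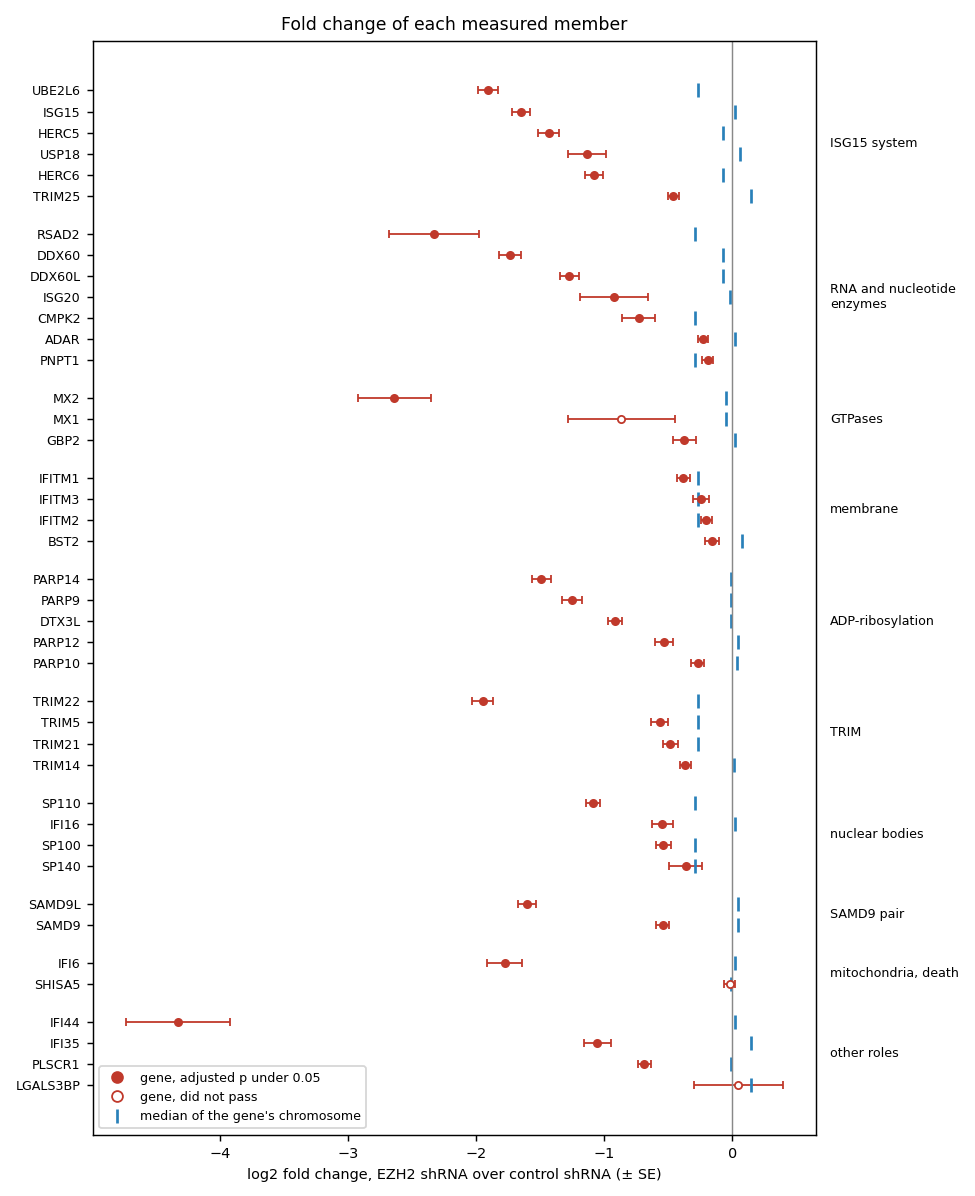
Log2 fold change of the 41 measured genes (EZH2 shRNA over control shRNA, points ± SE, grouped by role), with the median log2 fold change of the chromosome each gene lies on as a blue tick. The IFITM genes, SP140 and PNPT1 lie near the tick of their chromosome, while UBE2L6, TRIM22, RSAD2 and SP110 lie far left of theirs.

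Position on the chromosome bears most on 13 of the 41 measured genes. Chromosomes 2 and 11, lower as a whole at medians of -0.29 and -0.27, hold 6 and 7 of them, and all 13 were called lower. Over all genes tested 22.9% were called lower, and 20.8% with chromosome medians removed. The share within chromosomes 2 and 11 was not computed. With chromosome medians removed, 8 of these 13 were still called lower, and IFITM1, IFITM2, IFITM3, SP140 and PNPT1 were not; PNPT1 was then at 0.10 (edgeR adjusted p = 0.0575). Of the 28 genes on other chromosomes 25 were lower, with a median log2 fold change of -0.92, a count chosen after the chromosome shifts were known, and the same number was called lower with chromosome medians removed. Chromosome 17, which holds IFI35, TRIM25 and LGALS3BP, was shifted the other way, at a median of 0.15. With chromosome medians removed IFI35 was at -1.20 and LGALS3BP at -0.10. What moved these chromosomes was not tested.

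Fold changes were set against the level in control cells on the deposited FPKM scale, which is per gene length. Control levels ranged from 0.0400 FPKM for MX1 and 0.108 FPKM for MX2 to 90.6 FPKM for IFITM2 and 100.01 FPKM for BST2. Of the 8 genes under 1 FPKM, MX1, MX2, IFI44 and RSAD2 passed the filter only through the controls. The 8 had a median log2 fold change of -0.89 (6 called lower), the 14 genes from 1 to 5 FPKM -1.11 (14 lower), the 13 genes from 5 to 20 FPKM -0.54 (12 lower) and the 6 genes at 20 FPKM or more -0.30 (6 lower). The 4 others under 1 FPKM (ISG20, CMPK2, SP140 and LGALS3BP) had a median of -0.55 (3 lower), about that of the genes from 5 to 20 FPKM. Over all genes tested the medians in the same ranges were 0.14, -0.02, -0.03 and 0.01. Called lower in these ranges were 481 of 4934, 1106 of 4682, 1495 of 4584 and 774 of 2654 of all genes tested. ISG15 was the exception among the abundant genes, at 29.8 ± 0.48 FPKM in control cells (SD, n = 3) with a log2 fold change of -1.65, and the other 5 at that level (TRIM14, IFITM1, ADAR, IFITM2 and BST2) lay between -0.38 and -0.16. Across the 41 genes falls were somewhat larger at lower control levels (Pearson r = 0.39, Spearman rho = 0.41), and with the mean level of all 6 libraries the values were 0.46 and 0.46. Without the 4 genes that passed only through the controls the correlation with control level was weaker (r = 0.17, rho = 0.29, n = 37). Over all genes tested with a value the correlations with control level ran the other way (r = -0.25, rho = -0.15, n = 16854). These are descriptions across genes that share the same libraries, and the control values enter both axes. The order depends on the scale: on log2(FPKM + 1), which shrinks changes of weak genes, rho was -0.20 over the 41 genes.

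**Figure D4:**
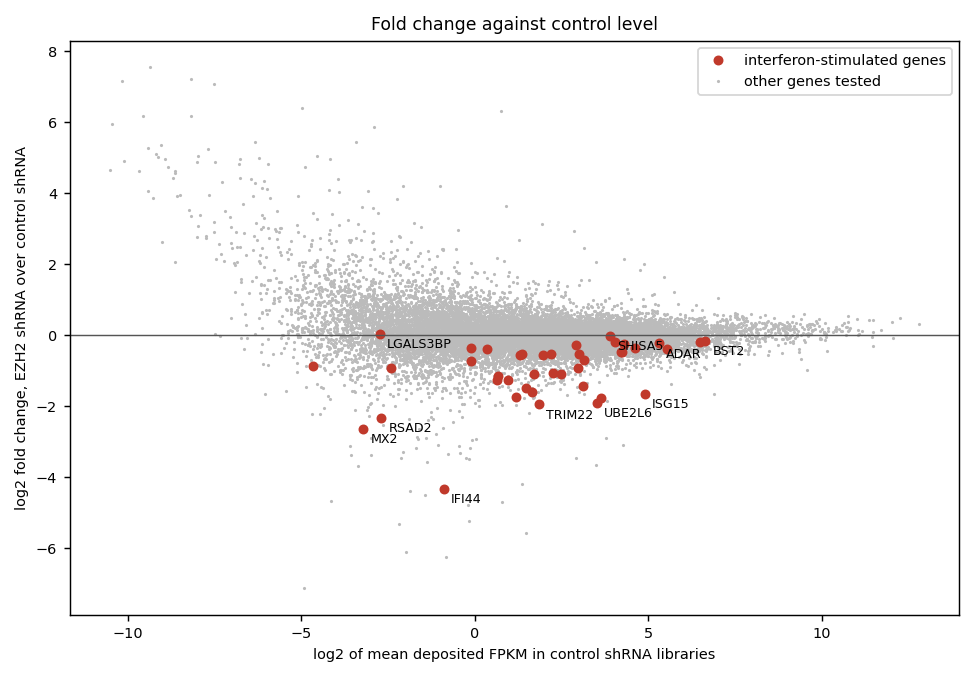
Log2 fold change (EZH2 shRNA over control shRNA) against the log2 of the mean deposited FPKM in control shRNA libraries, for the 41 measured interferon-stimulated genes (red) and the other genes tested (grey). The red points lie below 0 except LGALS3BP at 0.05, with IFI44 at -4.33 lowest and ISG15 at -1.65 standing below the other abundant genes.

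The falls were similar in the 3 EZH2 shRNA libraries. The median over the 41 genes of the log2 CPM minus the control mean was -0.70, -0.68 and -0.78 in EZH2 shRNA libraries 1, 3 and 4, against -0.020, 0.0040 and 0.0010 in control libraries 3, 4 and 5. EZH2 library 3 was the lowest of its group for 22 of the 41 genes, library 1 for 13 and library 4 for 6. The spread within a group was small: the median SD of log2 CPM over the 41 genes was 0.077 in EZH2 shRNA libraries and 0.068 in control libraries, against 0.097 and 0.081 over all genes tested.

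Of the interferon receptor pathway, transcription factors, some receptor chains and JAK1 were lower. Whether these changes bear on the falls above was not tested. IRF9 (log2 fold change -1.95), IRF7 (-1.59), STAT2 (-0.81) and IRF1 (-0.36) were called lower. STAT2 averaged 24.6 CPM in EZH2 shRNA cells and 43.1 CPM in control cells, and IRF9 averaged 1.47 CPM in EZH2 shRNA cells and 5.68 CPM in control cells. Of 5 measured receptor chains 2 were lower, IFNAR1 at -0.27 and IFNGR1 at -0.36, and IFNAR2 (-0.05), IFNGR2 (-0.09) and IL10RB (0.03) did not pass. Of the kinases JAK1 was at -0.11 (edgeR adjusted p = 0.0326), and JAK2 (0.06) and TYK2 (0.10) did not pass. Among 5 measured inhibitors of the pathway PTPN2 rose (0.17), PTPN11 (-0.23) and PIAS1 (-0.22) fell, and PTPN6 (-0.03) and SOCS3 (0.45) did not pass, while SOCS1 was below the filter. None of 21 interferon ligand genes passed the filter, and 16 of them had no read in any library. Their summed level was at most 0.0603 CPM in any EZH2 shRNA library and lay between 0.0943 and 0.152 CPM in control libraries, and IFNB1, the interferon beta gene, averaged 0.0201 CPM in EZH2 shRNA cells and 0.0809 CPM in control cells, with at most 5 counts in any library. The IFIT and OAS genes, antiviral effectors of the same pathway, were lower in 8 of 8 cases, against 22.9% of all genes tested. Their median was -3.27. At least 1 of them had at most 5 counts in any EZH2 shRNA library and so passed the filter only through the controls.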

How the data were processed

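Raw counts per gene and FPKM values for 6 libraries were deposited by the authors. Per the submitters' processing notes, GRCh38, STAR (2.5.2b), DESeq2 (1.24.0) under R 3.6.1 and Picard (2.18.24) were used, in roles the notes do not give. Not given in the sources used here are the program that counted reads, its annotation and its use of strand, so genes that overlap on opposite strands may share reads. Counts divided by DESeq2 size factors and by the deposited FPKM gave 1 constant per gene for 29060 of 29060 genes (tolerance 1e-04), so the FPKM table is the same data rescaled.

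Groups were read from the sample titles. Replicates were separate libraries by their counts (within-group chi-square per degree of freedom 3.02 to 15.9). Computed here were TMM-scaled CPM, filterByExpr (16859 genes kept; "measured") and the edgeR 4.0.16 quasi-likelihood test in R 4.3.3, robust, with a group term alone; p-values were adjusted by Benjamini-Hochberg across the tested genes and called at 0.05. SE is the absolute log2 fold change divided by the square root of F. Floors of 3 counts cover counting error only, and the SE reflects the spread among these 6 libraries alone. The fit was tested on simulated counts. Alternatives used DESeq2 1.42.0 and limma 3.58.1. Chromosome medians used genes above a log2 CPM of 2 and were removed through offsets.

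The members, their classes and the pathway and marker lists were chosen with earlier results of these data known. Per-library values are given for up to 3 called genes per class with the largest fold change and for each gene that did not pass; SP140 was added after its values were seen. No test was made over the list. Some genes of the pathway and marker lists are not reported here.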

Additional observations from a re-analysis of the deposited data

How the results depend on the processing

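The 38 calls of lower expression among 41 genes became 38 with DESeq2 size factors, upper-quartile factors, library size only and DESeq2, 36 of 37 with a filter of 1 CPM, 39 of 48 with no filter, 36, 36 and 35 on log2(FPKM + 1), log2(FPKM + 0.1) and unfiltered log2(FPKM + 1), 33 with chromosome medians removed, and 36 to 38 when 1 library was left out. No alternative called a member higher. The share of all genes tested that was called lower also differed. It was 23.4% with DESeq2 size factors, 21.3% with upper-quartile factors, 23.9% with library size only and 22% with DESeq2. With the 1 CPM filter it was 26.5%, and 13.4% with no filter. On the 3 FPKM scales it was 21.9%, 21.9% and 10.5%, with chromosome medians removed 20.8%, and with 1 library left out 19.5% to 23.8%. Where members were left out of the main fit it stayed at 22.9%. The median log2 fold change of -0.73 was -0.68 with the 1 CPM filter, -0.79 with no filter, -0.44, -0.56 and -0.37 on the 3 FPKM scales, -0.68 with chromosome medians removed and between -0.82 and -0.67 with 1 library left out. Chosen after seeing the data, leaving out chromosomes 2 and 11 gave 25 of 28 lower (median -0.92), and leaving out genes overlapped by another measured gene also gave 25 of 28 (median -0.89). Leaving out the 4 genes that passed the filter only through the controls gave 35 of 37 lower, with a median of -0.57 and a rank correlation of 0.29. The rank correlation with control level of 0.41 was -0.20, 0.20 and -0.49 on the 3 FPKM scales, which shrink changes of weak genes. The count of calls over all genes, 7866, stayed within 5906 and 8122.

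Of 693 gene values under 17 alternatives 666 kept direction and call, 18 lost the call and 9 changed sign. The sign changes were IFITM2 (0.068), IFITM3 (0.026), PNPT1 (0.10) and LGALS3BP (-0.10) with chromosome medians removed, LGALS3BP without control library 4 (-0.19), control library 5 (-0.0036) or EZH2 library 3 (-0.24), and SHISA5 with upper-quartile factors (0.0026) or without control library 3 (0.016). With 1 library left out LGALS3BP ranged between -0.24 and 0.37 and SHISA5 between -0.039 and 0.016. On log2(FPKM + 1), 14 called genes moved by over 1.5 times, among them IFI44 to -0.59, MX2 to -0.12 and RSAD2 to -0.16. The title numbers 3 and 4 occur in both groups but are not said to pair the libraries, and deviations of same-numbered libraries correlated at 0.04 and 0.01. With the replicate block by title number 37 genes were lower, against 22.9% of all genes tested. Their median was -0.66 over the 41 genes, and SP140 lost its call (edgeR adjusted p = 0.0511). Low counts limit the fold changes of IFI44, IFI44L, GBP1, MX1, MX2 and RSAD2.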
